A study of Mus musculus with 7 samples.

Results

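The genes described here are 40 mouse genes of ribosome production in the nucleolus, the body of the nucleus in which ribosomal RNA is made and assembled with protein. They were chosen by symbol, as proteins of small nucleolar ribonucleoproteins (snoRNPs), processing factors of ribosomal RNA (rRNA) and genes of RNA polymerase I, and all 40 were found among the 55855 gene identifiers of the deposited table. RNA was measured in hematopoietic stem cells (HSCs) of the bone marrow of mice aged 2 months, in 3 libraries of the genotype Fth1fl/fl, in which the gene of ferritin heavy chain is flanked by recombination sites (control), and 4 libraries of the genotype Fth1△/△, in which it is deleted (Fth1-deleted). The deletion was conditional and hematopoietic. The Cre driver, the sort markers, the strain and the sex are not given in the sources used here, and since no source says that the libraries are from separate mice, p-values measure only the spread between libraries, which may be technical. The series text calls the control mice WT.

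RNA polymerase I transcribes the long rRNA precursor, and its initiation factor Rrn3 ties this to growth signals. Box C/D snoRNPs methylate and box H/ACA snoRNPs pseudouridylate the precursor at sites picked by their guide RNAs, while processing factors cut it and fold it into the small (40S) and large (60S) subunits. HSCs are known for a low rate of protein synthesis, and nucleolar output rises when blood progenitors begin to divide.

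Libraries held 12058392 to 15453168 counted reads. Fth1 was at 552, 659 and 638 FPKM (fragments per kilobase, scaled to library depth) in control libraries and at 202, 333, 358 and 114 FPKM in Fth1-deleted libraries, all lower than control. Its log2 difference was -1.42 (SE 0.33, limma adjusted p = 0.193; two-sided exact permutation p = 0.0571), so the targeted gene itself did not pass the threshold of 0.05. The HSC marker Kit was at 279 to 428 FPKM in control and 209 to 313 FPKM in Fth1-deleted libraries. Hlf, a further HSC marker, was at 157 to 263 and 66.9 to 129 FPKM, lower without overlap (log2 difference -1.17, SE 0.25, limma adjusted p = 0.185). Both were present in every library, whereas the HSC marker Hoxb5 was at 0 in Fth1-deleted 2. Of 12 HSC markers tested, 2 had a positive log2 difference, and the median was -0.48. The nuclear rRNA model CT010467.1 took 0.0244%, 0.983% and 0.014% of reads in control libraries and 1.21% to 1.34% in Fth1-deleted libraries. Y-linked reads were present in control 2 and in Fth1-deleted 1, 2 and 3.

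Most of the 40 genes had somewhat more RNA in Fth1-deleted HSCs, but none differed beyond the spread between libraries once all genes were considered. The log2 difference, Fth1-deleted minus control on the scale of log2(FPKM + 1), was positive for 37 of 40 genes (34 where libraries were scaled to an equal FPKM sum, as TPM) and ranged from -0.21 for Utp15 to 0.62 for Nop58, with a median of 0.28. Over the 13948 genes tested 48.7% were positive and the median was -0.02. By limma with Benjamini-Hochberg adjustment 0 of the 40 passed, and the smallest adjusted p was 0.289. The background is low as well, with 0.0574% of all genes tested past that threshold. At an unadjusted p under 0.05, 4 of 40 were higher and 0 lower, against 4.9% and 4.93% of all genes. By limma-voom on read numbers recovered from the values, 0 of 40 passed (0.0365% of all genes) and 4 were higher at an unadjusted p under 0.05 (4.63% of all genes). In bulk samples such as these, a change in the share of cells of a type and a change in RNA per cell cannot be told apart. In 4 genes, Nop58, Tcof1, Gnl3 and Ddx21, every Fth1-deleted library was above every control library, and in no gene was the order reversed. Of all genes tested, 4.1% were separated upward and 5.55% downward.

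**Figure D1:**
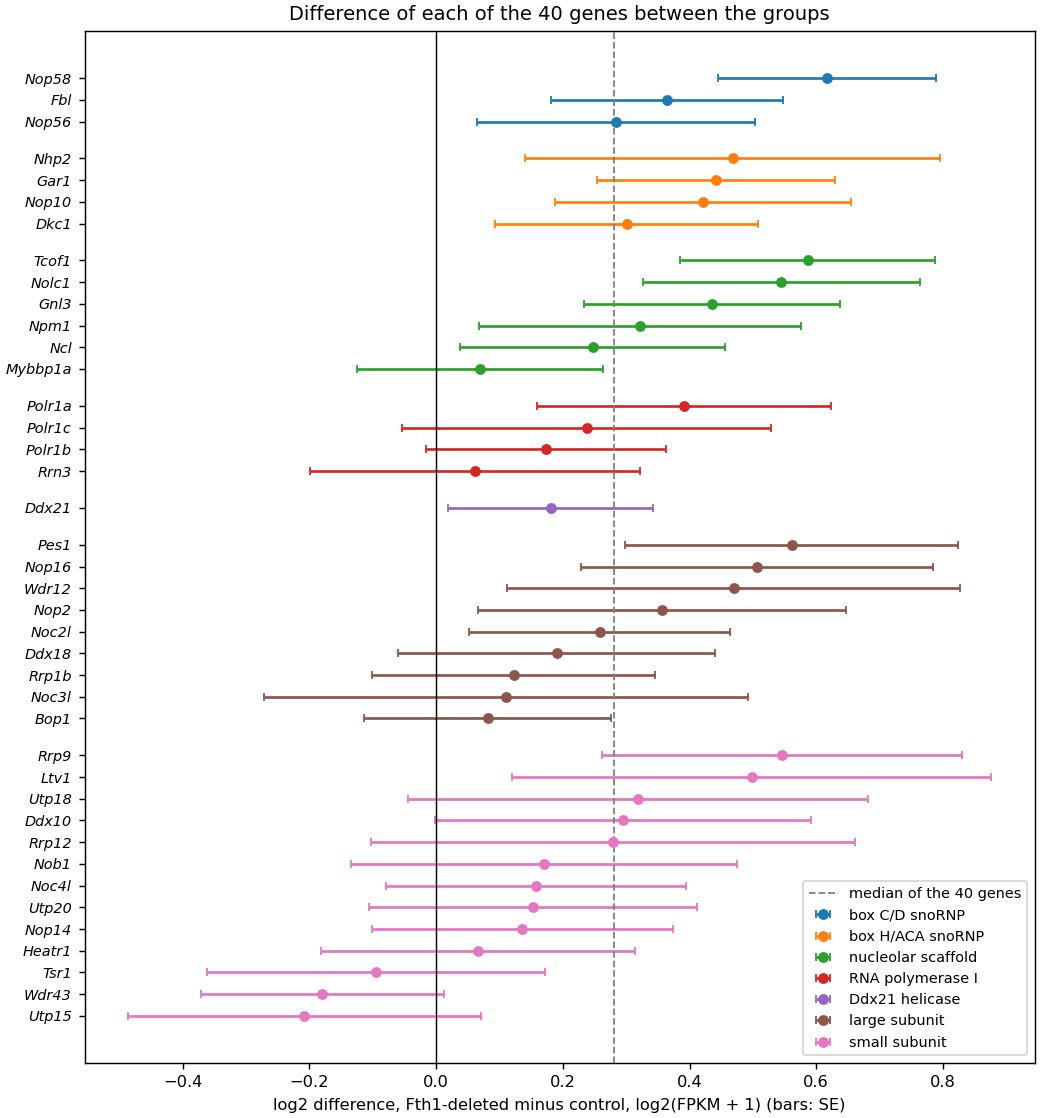
Log2 difference of each of the 40 genes (points; bars are the standard error of limma), Fth1-deleted (n = 4) minus control (n = 3), grouped by role. The points lie right of 0 for 37 genes, the dashed line marks the median of 0.28, and the 3 points left of 0 (Utp15, Wdr43, Tsr1) are all small subunit factors.

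The difference was smaller without control 2. Without that library the median fell to 0.17 and 29 of 40 genes were positive, while leaving out any other library gave medians of 0.21 to 0.35 and 34 to 37 positive genes. With the rRNA level of CT010467.1 as a covariate, chosen after seeing the data, the median was 0.46 and 32 were positive. With the mean level of S phase genes as a covariate, also chosen after seeing the data, the direction turned, with a median of -0.16 and 16 of 40 positive.

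All 3 box C/D proteins had positive differences. Nop58 (ENSMUSG00000026020, chromosome 1, 59684971 to 59719044, plus strand), a core protein that the guide RNA is wrapped around, was at 131, 115 and 112 FPKM in control and at 206, 162, 189 and 178 FPKM in Fth1-deleted libraries. The groups did not overlap, and the level of 184 ± 18.7 FPKM (SD, n = 4) was 1.54-fold that of 119 ± 9.85 FPKM (SD, n = 3). Its log2 difference was 0.62 (SE 0.17, limma adjusted p = 0.289), and it lay between 0.49 (S phase covariate) and 0.68 (1 library left out) over all 23 alternatives. Fbl encodes fibrillarin, the methyltransferase of the particle, and was at 327, 246 and 338 FPKM in control and 437, 322, 364 and 441 FPKM in Fth1-deleted libraries. One deleted library, Fth1-deleted 2, lay within the control range, with a log2 difference of 0.36 (SE 0.18, limma adjusted p = 0.552; 0.22 without control 2). Nop56, the partner of Nop58 on the particle, overlapped between groups and had a log2 difference of 0.28 (SE 0.22). The ratio of Nop56 to Nop58 FPKM was 2.51, 1.58 and 2.05 in control and 1.79, 1.55, 1.38 and 1.67 with Fth1 deleted, so the balance between them overlapped as well.

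The 4 box H/ACA proteins were all positive, with log2 differences of 0.30 to 0.47. Gar1 (ENSMUSG00000028010, chromosome 3, 129824912 to 129831396, minus strand), which helps the particle release its product, was at 177, 137 and 127 FPKM in control and 213, 166, 221 and 196 FPKM in Fth1-deleted libraries. Here 3 of 4 deleted libraries lay above all controls, with a log2 difference of 0.44 (SE 0.19, limma adjusted p = 0.478). Nop10, the smallest protein of the particle, was at 94.8, 65.2 and 88.5 FPKM in control and 137, 108, 79.9 and 123 FPKM in Fth1-deleted libraries, again with 3 of 4 above all controls, and a log2 difference of 0.42 (SE 0.23) that was 0.26 without control 2. Dkc1 encodes dyskerin, the pseudouridine synthase that also holds telomerase RNA, and its log2 difference was 0.30 (SE 0.21). Nhp2, an RNA-binding subunit, had the largest difference of the 4 at 0.47, but also the largest SE at 0.33. Levels of the partners relative to Dkc1 varied within groups, for Nhp2 from 0.528 to 1.02 in control and from 0.55 to 1.18 in Fth1-deleted libraries.

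Among 6 nucleolar scaffold and chaperone genes all were positive, with a median of 0.38. Tcof1 encodes treacle, which couples polymerase I to early processing, and was at 60.2, 51.4 and 53.4 FPKM in control and 85.2, 71.3, 82.8 and 93.9 FPKM in Fth1-deleted libraries. The groups did not overlap, with a log2 difference of 0.59 (SE 0.20, limma adjusted p = 0.390). Nolc1 (ENSMUSG00000015176, chromosome 19, 46075863 to 46085530, plus strand), a chaperone of snoRNPs that resembles treacle, was at 109.7, 68.9 and 81.1 FPKM in control and 140.4, 108, 109 and 145 FPKM in Fth1-deleted libraries. Control 1 reached the lower deleted libraries, with a log2 difference of 0.55 (SE 0.22, limma adjusted p = 0.449). Gnl3 encodes nucleostemin, a GTPase of stem and dividing cells, and is described in full because its groups were seen not to overlap. It was at 85.3, 116 and 95.7 FPKM in control and 170.0, 119, 127 and 122 FPKM in Fth1-deleted libraries, a log2 difference of 0.44 (SE 0.20, limma adjusted p = 0.513).

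The most abundant of the 40 genes differed less clearly. Npm1 encodes nucleophosmin, the main shell protein of the nucleolus, and was at 728, 554 and 919 FPKM in control and 1086, 594, 812 and 1242 FPKM in Fth1-deleted libraries. The groups overlapped widely, with a log2 difference of 0.32 (SE 0.25, limma adjusted p = 0.705). It was 0.14 without control 2, 0.17 without Fth1-deleted 4, 0.50 without control 3 and 0.52 without Fth1-deleted 2. Ncl encodes nucleolin, which binds nascent rRNA, and was at 509.5, 383 and 501 FPKM in control and 604, 409, 494 and 733 FPKM in Fth1-deleted libraries (log2 difference 0.25, SE 0.21). It was 0.11 without control 2 or without Fth1-deleted 4, and 0.39 without Fth1-deleted 2. Together with Fbl these genes made up 30.8% to 36.1% of the summed FPKM of the 40 genes in control and 29.6% to 37.6% in Fth1-deleted libraries, so their share overlapped between groups. Mybbp1a, a partner of MYB that also acts in rRNA processing, had a log2 difference of 0.07 (SE 0.19).

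**Figure D2:**
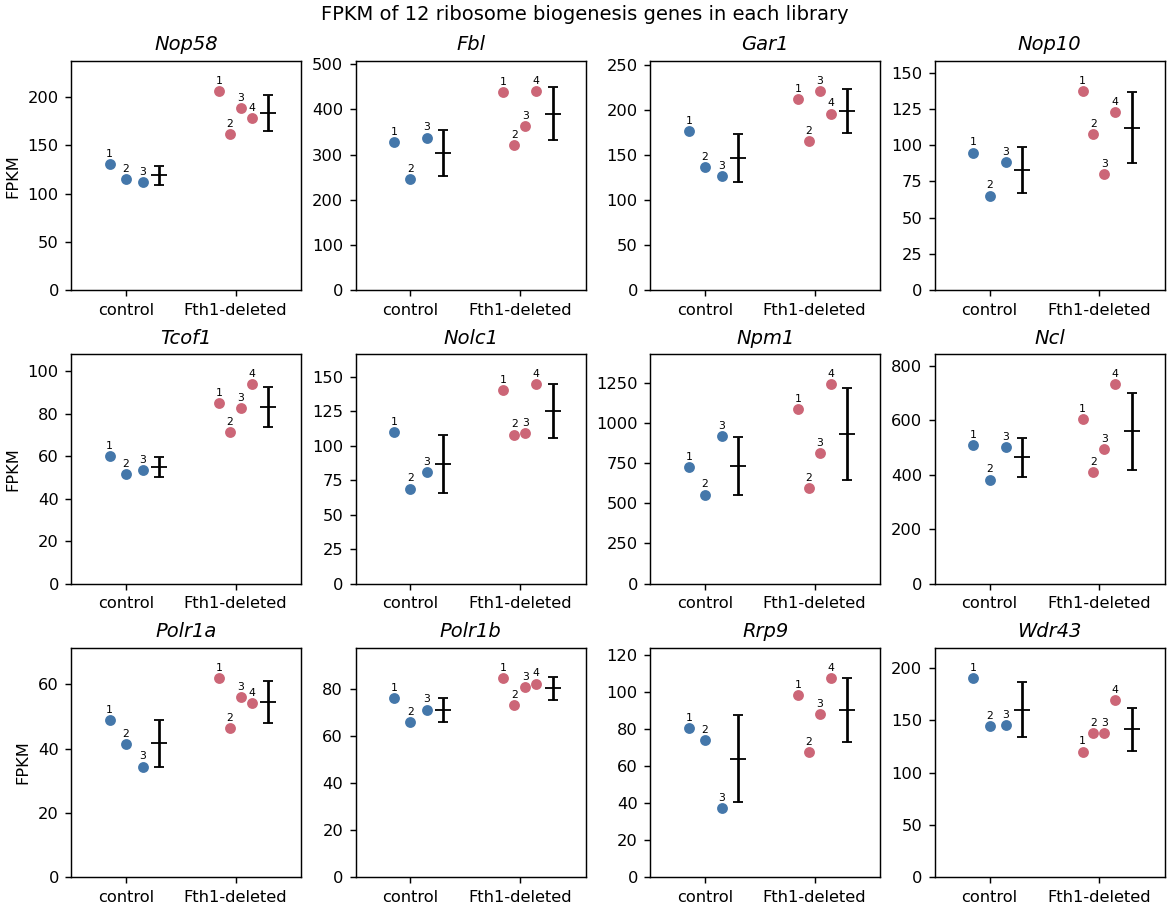
FPKM of 12 genes in each control library (blue, n = 3) and Fth1-deleted library (red, n = 4); small digits are replicate numbers, and black marks are the mean and SD of each group. Nop58 and Tcof1 separate without overlap, whereas the other 10 overlap, and Wdr43 is lower on average in Fth1-deleted libraries.

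RNA polymerase I genes showed small positive differences with overlap in all 4. Polr1a, the largest catalytic subunit, was at 48.9, 41.5 and 34.4 FPKM in control and 62.0, 46.3, 56.0 and 54.1 FPKM in Fth1-deleted libraries (log2 difference 0.39, SE 0.23, limma adjusted p = 0.622). Polr1b, the second large subunit, was the steadiest, at 76.3, 66.0 and 71.3 FPKM and at 84.9, 73.2, 81.0 and 82.4 FPKM (log2 difference 0.17, SE 0.19). In both genes 3 of 4 deleted libraries lay above all controls. Polr1c, a subunit shared with RNA polymerase III, was at 86.0, 67.7 and 145 FPKM and at 98.3, 83.7, 113 and 167 FPKM, a spread within groups far above the difference of 0.24 (SE 0.29). That difference was -0.0001 without control 2, 0.046 without Fth1-deleted 4, 0.37 without Fth1-deleted 2 and 0.54 without control 3. Rrn3, the initiation factor, was at 32.0, 24.6 and 28.6 FPKM and at 26.1, 28.6, 31.8 and 32.1 FPKM, with a difference of 0.06 (SE 0.26) that turned negative without control 2 (-0.034) and with TPM scaling (-0.014), and was 0.02 to 0.15 with any other library left out.

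The 9 large subunit factors were all positive, with a median of 0.26 and no gene separated between the groups. Pes1, Bop1 and Wdr12 form the PeBoW complex, which processes the 60S precursor. Pes1 was at 63.3, 31.2 and 41.4 FPKM in control and 60.5, 57.1, 69.1 and 72.9 FPKM in Fth1-deleted libraries (log2 difference 0.56, SE 0.26, limma adjusted p = 0.520; 0.33 without control 2). Its partners differed less, Wdr12 by 0.47 (SE 0.36) and Bop1 by 0.08 (SE 0.20). The ratio of Bop1 to Pes1 FPKM was 1.74, 3.04 and 2.97 in control and 1.54 to 2.15 in Fth1-deleted libraries, so control 2 and 3 lay above all others and control 1 among the deleted ones. Nop16, a further 60S factor, was at 81.2, 35.8 and 60.8 FPKM and at 101, 70.6, 72.8 and 80.0 FPKM (log2 difference 0.51, SE 0.28). Without control 2, the lowest library, the difference of Nop16 was 0.19, and without control 1 it was 0.77. Noc2l, the most abundant of the 9, was at 175, 116 and 143 FPKM and at 190.1, 132, 191 and 177 FPKM (log2 difference 0.26, SE 0.21; 0.11 without control 2 and 0.40 without control 1). The remaining differences were 0.36 for Nop2, the methyltransferase of large subunit rRNA, 0.19 for the helicase Ddx18, 0.12 for Rrp1b and 0.11 for Noc3l.

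Small subunit factors differed least. Of 13 genes 10 were positive, with a median of 0.16. Rrp9, a protein of the U3 snoRNP that guides the early cuts, was at 80.6, 74.0 and 37.4 FPKM in control and 98.5, 67.4, 87.9 and 108 FPKM in Fth1-deleted libraries (log2 difference 0.55, SE 0.28, limma adjusted p = 0.576; 0.20 without control 3). Ltv1, an export adaptor of the 40S precursor, was at 34.5, 17.8 and 21.7 FPKM and at 38.2, 17.5, 51.1 and 38.6 FPKM (log2 difference 0.50, SE 0.38). It was 0.30 without control 2, 0.31 without Fth1-deleted 3, 0.76 without control 1 and 0.80 without Fth1-deleted 2. Both overlapped: Fth1-deleted 2 lay within the control range for Rrp9 and just below all controls for Ltv1. The 3 genes of the whole set with a negative difference belong here. Wdr43, a part of the U3-associated complex that binds the nascent precursor, was at 191, 145 and 145 FPKM in control and 120.1, 138, 138 and 169.7 FPKM in Fth1-deleted libraries (-0.18, SE 0.19; -0.05 without control 1, -0.11 without Fth1-deleted 1 and -0.27 without Fth1-deleted 4). Utp15, of the same complex, was at 33.6, 25.2 and 27.0 FPKM and at 27.9, 19.6, 25.1 and 25.9 FPKM (-0.21, SE 0.28; -0.09 without control 1 and -0.11 without Fth1-deleted 2). Tsr1, which holds the late 40S precursor, was at 45.5, 33.7 and 29.7 FPKM and at 29.2, 42.0, 33.3 and 30.6 FPKM (-0.09, SE 0.27; 0.08 without control 1, and -0.22 to -0.03 with any other library left out). The other 8 ranged from 0.07 for Heatr1, which is needed for transcription and early cuts, through 0.14 for Nop14, 0.15 for Utp20, 0.16 for Noc4l, 0.17 for the endonuclease Nob1, 0.28 for Rrp12 and 0.30 for the helicase Ddx10 to 0.32 for Utp18.

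Ddx21, a helicase that acts on polymerase I and snoRNAs, shows how small a separated difference can be. It was at 154, 145 and 159 FPKM in control and 185, 160.1, 177 and 172 FPKM in Fth1-deleted libraries, a log2 difference of 0.18 (SE 0.16, limma adjusted p = 0.734). The lowest deleted library exceeded the highest control by about 1 FPKM.

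**Figure D3:**
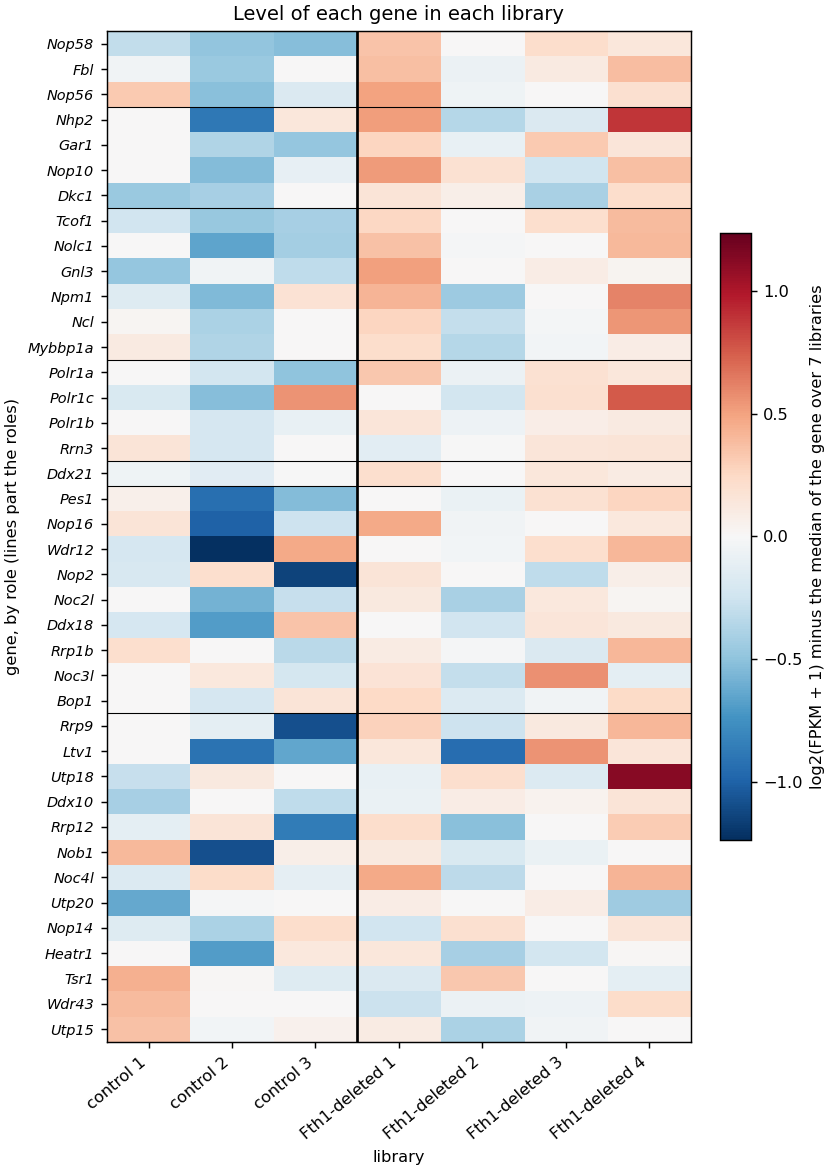
Level of each of the 40 genes in each library as log2(FPKM + 1) minus the median of that gene over the 7 libraries (red above, blue below), with horizontal lines between roles. Control 2 is blue in most rows, and Fth1-deleted 1 and 4 are red in most rows.

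The libraries of one group were not alike. Control 2 was the lowest of the 7 libraries for 22 genes, and Fth1-deleted 1 and 4 were the highest for 13 and 15 genes. Fth1-deleted 2 was the lowest deleted library for 29 of 40 genes. The summed FPKM of the 40 genes was 4972, 3837 and 4863 in control and 6144, 4483, 5160.0 and 6434 with Fth1 deleted, so that Fth1-deleted 2 lay among the controls. The median coefficient of variation of the 40 genes was 18.8% among control and 16.2% among Fth1-deleted libraries. The error expected from read numbers was about 2.52%, since each gene had 353 to 25479 reads per library. Tested genes within the same range of mean FPKM (8029 genes, the 40 included) had medians of 27.6% and 23.1%.

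Other genes of the pathway, taken from lists of further factors, leaned the same way but less. Of 132 tested genes in 5 lists, 90 were positive with a median of 0.16, 0 passed the threshold, and 10 were higher and 2 lower at an unadjusted p under 0.05. Of all genes tested, 48.7% were positive, 0.0574% passed the threshold, and 4.9% were higher and 4.93% lower at that unadjusted p. By role, the medians were 0.19 over 10 other snoRNP and assembly factors, 0.15 over 16 other polymerase I genes, 0.09 over 44 other small subunit factors, 0.16 over 49 other large subunit factors and 0.26 over 13 exosome genes. Snu13, the fourth core protein of box C/D particles, was at 74.3, 102 and 111 FPKM in control and 154, 125, 136 and 162 FPKM in Fth1-deleted libraries (log2 difference 0.60, SE 0.20, limma adjusted p = 0.381). Ddx56 and Lyar, a helicase and a nucleolar growth factor of the large subunit list, had log2 differences of 0.82 (SE 0.20) and 0.90 (SE 0.23), both above all of the 40 genes. Lyar was at 68.8, 55.1 and 61.4 FPKM in control and 161, 93.1, 101 and 119 FPKM in Fth1-deleted libraries, with no overlap (limma adjusted p = 0.231). Exosc8, of the RNA exosome that trims rRNA ends, was at 51.7, 54.7 and 51.5 FPKM and at 74.2, 79.7, 96.7 and 77.9 FPKM, also with no overlap (log2 difference 0.63, SE 0.20). Utp3 had the smallest p of the small subunit list (log2 difference 0.73, SE 0.30, limma adjusted p = 0.452). It was at 19.2, 23.1 and 24.7 FPKM and at 39.2, 31.6, 55.8 and 28.9 FPKM, with no overlap. Imp3, of the U3 snoRNP and the next in that list, went the other way. It was at 96.6, 143 and 130.1 FPKM and at 97.1, 76.1, 49.5 and 105 FPKM (-0.62, SE 0.27). In the large subunit list 9 of 49 genes were separated upward and 0 downward, and in the small subunit list 3 and 3 of 44, beside 4.1% upward and 5.55% downward of all genes tested.

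RNA polymerase III genes and their factors had a median of -0.02, with 9 of 19 positive. The 2 of smallest p, Polr3gl (log2 difference 1.00, SE 0.33) and Polr3e (0.61, SE 0.26), were higher without overlap. In this list 2 of 19 genes were separated upward and 1 downward, beside 4.1% and 5.55% of all genes tested. Myc, a known activator of nucleolar genes named outside the rule, was at 250.1, 186 and 166 FPKM in control and 244, 213, 202 and 232 FPKM in Fth1-deleted libraries (log2 difference 0.17, SE 0.18, limma adjusted p = 0.784). Ubtf, which opens rRNA genes for polymerase I and was also named outside the rule, had a difference of 0.19 (SE 0.18).

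Genes of cell division and markers of other cell types differed between the libraries as well. The mean log2(FPKM + 1) of 28 S phase genes was 5.98, 5.39 and 5.84 in control and 6.21 to 6.30 in Fth1-deleted libraries, without overlap. That of 24 G2 and M phase genes was 5.81, 4.76 and 5.17 in control and 5.67 to 5.98 in Fth1-deleted libraries, and control 2 was the lowest library in both lists, as for the 40 genes. Of 27 tested S phase genes 25 had a positive log2 difference, with a median of 0.47. For G2 and M phase it was 22 of 24 with a median of 0.58, beside 37 of 40 and 0.28 for the 40 genes. With the S phase mean as a covariate, 12 of the genes given with library values turned negative, among them Fbl (-0.09), Npm1 (-0.25), Nolc1 (-0.03) and Pes1 (-0.21), while Nop58 (0.49), Tcof1 (0.40) and Gar1 (0.22) stayed positive. That mean is itself separated between the groups, so the deletion and the S phase level cannot be told apart.

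The summed FPKM of 12 HSC markers was 957 to 1576 in control and 649 to 895 in Fth1-deleted libraries. That of 6 multipotent progenitor markers was 72.5 to 118 and 141 to 263, that of 10 neutrophil and myeloid progenitor markers 156 to 366 and 189 to 576, and that of 8 macrophage markers 19.0 to 40.2 and 43.5 to 142. In all controls 3 of the 10 neutrophil and 2 of the 8 macrophage markers were at 0. Prtn3 made up most of the neutrophil sum in control, at 136 to 315 FPKM, and was at 132 to 287 FPKM in Fth1-deleted libraries. Mpo was at 0.26 to 3.63 FPKM in control and 15.4 to 135 FPKM in Fth1-deleted libraries, without overlap. Of 9 tested neutrophil markers 8 had a positive log2 difference, with a median of 2.25. The 8 B cell markers summed to 12.1 to 26.2 and 24.2 to 87.8, with 5 of them at 0 in all controls. Among lymphoid genes Il7r was at 0 in all 7 libraries, Vpreb1 was at 0 in control and at 4.06 to 31.8 FPKM in Fth1-deleted libraries, and Dntt was at 0 to 3.14 and 3.96 to 18.4 FPKM. The 8 erythroid markers summed to 242 to 762 and 195 to 724, with control 1 the highest control, and the 6 T cell markers summed to at most 21.1. The 6 mast cell and basophil markers summed to 292 to 384 and 358 to 449.6, 6 megakaryocyte markers to 608 to 914 and 912 to 1095, and 7 stromal and endothelial markers to at most 39.7. Gata2 made up most of the mast cell sum, at 279.5 to 384 FPKM in control and 333 to 407 FPKM with Fth1 deleted. Cpa3 of that list was at 0 to 6.55 and 16.04 to 35.7 FPKM, without overlap (limma adjusted p = 0.0983). All 4 tested genes of the list had positive log2 differences. Cd34 made up most of the progenitor sum and Pecam1 most of the stromal sum in every library. Itga2b was the largest part of the megakaryocyte sum. The marker sums ranked the libraries in different ways. The progenitor and mast cell sums were highest in Fth1-deleted 2, the neutrophil sum in Fth1-deleted 3 and the erythroid sum in control 1. The B cell, T cell and megakaryocyte sums were highest in Fth1-deleted 4, and the macrophage sum in Fth1-deleted 1. Lck, at 15.5 FPKM, made up most of the T cell sum in Fth1-deleted 4. Itga2b by itself was highest in Fth1-deleted 2, at 664 FPKM. The stromal sum was nearly equal in Fth1-deleted 4 (39.7) and control 3 (39.5). Fth1-deleted 1 and 4 also had the highest sums of the 40 genes. The HSC marker sum was highest in control 2 and lowest in Fth1-deleted 4, the reverse of the sum of the 40 genes. The part of these cells in the levels of the 40 genes was not tested.

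**Figure D4:**
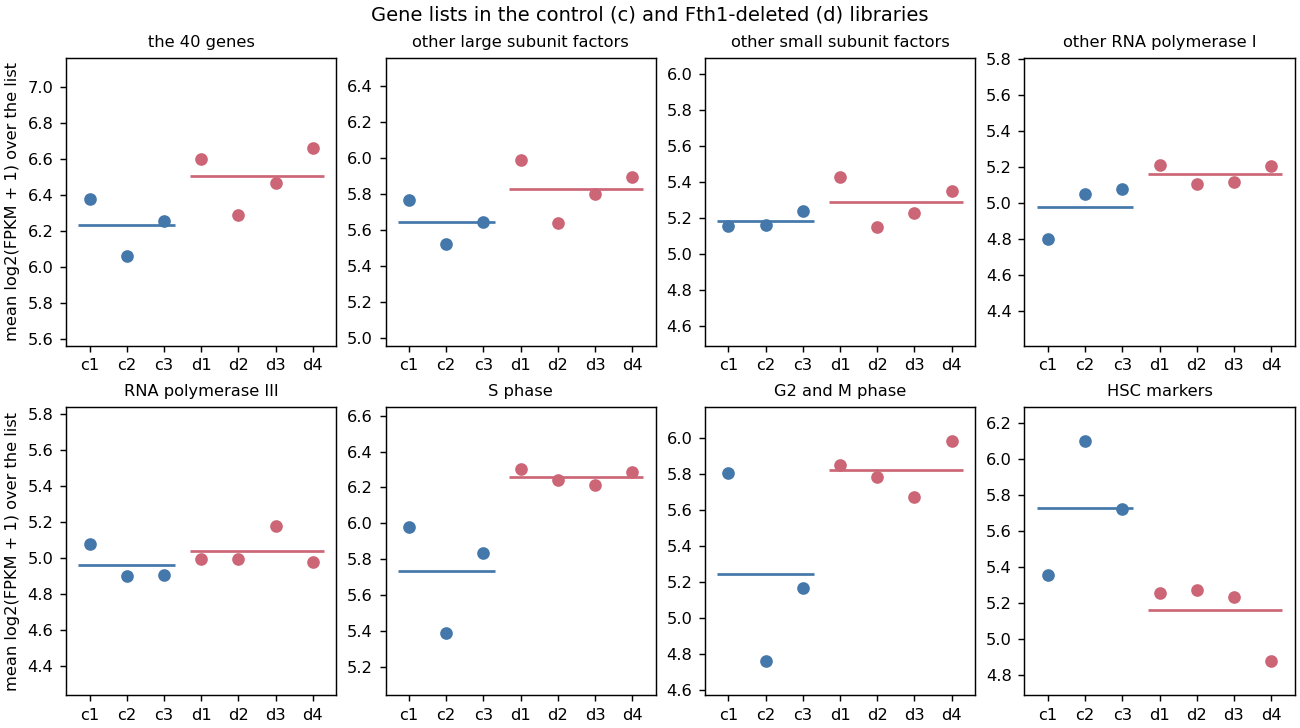
Mean log2(FPKM + 1) of 8 gene lists in each library (c, control, blue; d, Fth1-deleted, red), with a line at each group's mean; every panel spans 1.6 units. The 40 genes and the G2 and M phase list overlap between groups, the S phase list does not, and HSC markers are lower in Fth1-deleted libraries.

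The promoters of genes this alike in function were compared, since MYC and its partner MAX bind the E-box CACGTG. RefSeq windows (build GRCm38.p6) from 250 bases before to 50 bases after the start site were held for 35 of the 40 genes. No window was held for Fbl, Npm1, Tcof1, Bop1 and Rrp12. Positions are counted from the RefSeq start site, which can differ from that of GENCODE. In 27 of 39 windows of these genes the first 30 transcribed bases lay in a GENCODE transcript of the gene. The letters CACGTG, which read the same on both strands, were in a window of 9 of 35 genes (25.7%), against 8.09% of 27025 genes with a window. The sites are shown with up to 10 bases on each side, 5′ to 3′ on the strand of the gene, with the E-box in capitals:
Nop2, 60 bases before the start, chr6:125131813-125131838, plus strand: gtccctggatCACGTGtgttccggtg
Rrn3, 215 bases before, chr16:13780474-13780499, plus strand: gcgccaaggtCACGTGcacacgcctc
Rrn3, 48 bases before, chr16:13780641-13780666, plus strand: acgctctgctCACGTGggccgcgtcc
Utp18, 20 bases before, chr11:93885771-93885796, minus strand: gagcgccggtCACGTGgcttgcggcg
Pes1, from transcribed base 3, chr11:3963967-3963992, plus strand: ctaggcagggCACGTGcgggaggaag
Wdr43, from base 18, chr17:71616222-71616247, plus strand: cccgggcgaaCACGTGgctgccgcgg
Tsr1, from base 25, chr11:74898094-74898119, plus strand: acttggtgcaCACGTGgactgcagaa
Ltv1, from base 29, chr10:13193094-13193119, minus strand: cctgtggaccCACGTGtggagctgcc
Utp20, from base 38, chr10:88826765-88826787, minus strand: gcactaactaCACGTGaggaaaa
Mybbp1a, from base 41, chr11:72441357-72441376, plus strand: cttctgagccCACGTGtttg

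The 9 genes with these letters were spread over the range of differences. They included Pes1 (0.56) and Ltv1 (0.50) but also Rrn3 (0.06), Tsr1 (-0.09) and Wdr43 (-0.18), with a median of 0.15, against 0.27 over the 26 genes without them. The letters CCGGAAG on either strand, a core of sites for ETS factors, were in a window of 13 of 35 genes (37.1%), against 9.93% of all genes with a window. The letters TATAAA on either strand were in windows of Dkc1 and Pes1 alone (5.71% against 15.7%). The median GC content was 59.7% in the windows of the 35 genes, 52.7% in all windows and 56.3% in those of protein-coding genes. The letters AAGATGGC (YY1) on either strand were in no window of the 35 genes, against 3.19% of all genes with a window.

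The promoters of 3 genes from the upper end of the differences are shown 5′ to 3′ on the strand of the gene. Each ends before the start in RefSeq or in GENCODE, whichever lies further upstream, with CCGGAAG or its reverse complement in capitals. Nop58 had the smallest p of the 40, and its 215 bases hold neither these letters nor the E-box, while Nolc1 and Gar1 carry the letters close to the start:
Nop58, chr1:59684756-59684970, plus strand: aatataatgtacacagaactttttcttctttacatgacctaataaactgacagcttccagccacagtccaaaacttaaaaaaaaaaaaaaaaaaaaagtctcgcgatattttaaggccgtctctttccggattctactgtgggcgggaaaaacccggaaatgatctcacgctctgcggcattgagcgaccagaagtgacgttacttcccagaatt
Nolc1, chr19:46075597-46075846, plus strand: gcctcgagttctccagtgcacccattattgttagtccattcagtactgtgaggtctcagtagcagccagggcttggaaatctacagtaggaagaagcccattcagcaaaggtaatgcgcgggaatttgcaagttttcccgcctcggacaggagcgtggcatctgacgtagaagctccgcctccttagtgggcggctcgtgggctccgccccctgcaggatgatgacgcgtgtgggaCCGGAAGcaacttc
Gar1, chr3:129831397-129831646, minus strand: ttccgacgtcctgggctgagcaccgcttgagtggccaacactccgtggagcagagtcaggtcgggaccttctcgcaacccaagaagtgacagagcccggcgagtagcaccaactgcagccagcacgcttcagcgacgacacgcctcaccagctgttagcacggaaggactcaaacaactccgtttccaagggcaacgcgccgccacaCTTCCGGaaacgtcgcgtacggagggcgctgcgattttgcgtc

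Several loci carry other genes that bear on the counting. Of the 40 genes, 9 lie head to head with a protein-coding gene on the opposite strand, with starts at most 303 bases apart. The neighbours did not follow one direction, with Ddx51 beside Noc4l at 0.77, Higd2a beside Nop16 at 0.48, Pbrm1 beside Gnl3 at -0.31 and Yipf3 beside Polr1c at -0.43, none past the threshold. In 7 of the 40 genes the introns or exons hold 21 annotated small nucleolar RNA genes (5 in Nop56, 4 in Nop58), of which 6 had any signal, each in 1 or 2 libraries. Tsr1 shares 32.3% of its annotated exon bases with Srr on the opposite strand, and Noc2l shares 20.9% with Samd11, so their levels are uncertain where the strand was not used in counting. Ddx18 is 99.3% identical over 1984 bases to the pseudogene Gm16433, which was at 7.01 FPKM or less. Npm1 has 4 pseudogene copies of at least 95.1% identity, the highest of them Gm14681 at a mean of 72.0 FPKM, so reads of Npm1 may be split.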

How the data were processed

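Polyadenylated RNA, 1 µg per library, was prepared with a NEBNext kit per the labels' protocols, and reads were paired-end per the series text. Per the submitters' processing notes, alignment used HISAT2 2.0.4 (build GRCm38) and gene counting HTSeq 0.9.1. The values deposited by the authors are FPKM, which their series text derives from gene length and counts. Their annotation release, filters and strand setting are not given in the sources used here. Of 55855 identifiers 55480 matched GENCODE M21. FPKM times mean transcript length fell on whole read numbers within 0.05 for 98.8% to 99.4% of values under 50 reads, which gave the depth.

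After a filter for a mean of 1 FPKM or more, 13948 genes were fitted as log2(FPKM + 1) with limma 3.58.1 (trend, two-sided, no covariate) in R 4.3.3, with Benjamini-Hochberg adjustment over all of them and a threshold of 0.05. A fold change on this scale understates the change of low genes. All 40 genes passed the filter. Fth1 was also tested by exact permutation over 35 splits (smallest possible p 0.0286). The fit was also run on simulated data, in which the changed genes had larger changes than any of the 40 genes. That run does not show whether differences as small as those of the 40 genes would be found.

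Library values are printed for Fth1, for the 2 genes of smallest p and the most abundant gene of each role, for Nop58, Npm1, Ncl, Fbl, Polr1a, Rrn3 and Ddx21, and for the 3 lowest differences. Other lists name the 2 genes of smallest p, of which some are left out here. The result for 1 marker gene is not reported here. The 40 genes and all lists were chosen with earlier results of these data known. Alternatives were 19 planned settings (pseudocount, filter, scaling, variance model, replicate block, limma-voom on recovered reads, each library left out) and 4 added after seeing the data.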

Additional observations from a re-analysis of the deposited data

Results flagged for a closer look

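Gnl3 stood apart in 1 library. Fth1-deleted 1 was at 170.0 FPKM and the other Fth1-deleted libraries at 119 to 127 FPKM, a gap that takes up 0.849 of the range of the 4 libraries, above the 95% critical value of Dixon's test. Among 58 genes and list sums examined in this way it was the only such value, and chance flags about 1 in 20 groups.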

How the results depend on the processing

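None of the 40 genes passed the threshold under any of the 23 alternatives, where the smallest adjusted p of a member was 0.0943. The median log2 difference of 0.28 was 0.21 to 0.31 under the planned settings that kept all libraries and 0.17 to 0.35 with 1 library left out. It was 0.46 with the rRNA covariate and -0.16 with the S phase covariate. With the TPM scaling 34 of 40 were positive. The 4 genes separated upward became 2 with TPM (3.08% of all genes) and 5 with TPM of protein-coding genes (4.31%). They became 3 with scaling by median of ratios (4.38%) and 3 with quantile normalization (4.17%). With 1 library left out they were 5 to 11, beside 5.28% to 9.20% of all genes. The 11 came without control 1 or Fth1-deleted 2, where 9.20% and 6.57% of all genes were separated upward. Without Fth1-deleted 4, 1 of the 40 was separated downward (6.90% of all genes). Among the 5 libraries with high rRNA, which hold 1 control, 27 were separated upward and 1 downward (21.7% of all genes upward and 29.8% downward). Of 22 named genes the sign changed in 16 of 506 fits. With the S phase covariate 12 turned negative: Fbl (-0.091), Ltv1 (-0.191), Ncl (-0.219), Noc2l (-0.230), Nolc1 (-0.030), Nop10 (-0.159), Nop16 (-0.532), Npm1 (-0.251), Pes1 (-0.211), Polr1b (-0.011), Polr1c (-0.327) and Rrn3 (-0.217). The other 4 were Rrn3 (-0.014 with TPM, -0.034 without control 2), Polr1c (-0.0001 without control 2) and Tsr1 (0.076 without control 1). With 1 library left out Rrn3 ranged from -0.034 to 0.148, Polr1c from -0.0001 to 0.542 and Tsr1 from -0.224 to 0.076. Over all genes, the 8 calls became 0 with no filter and with the replicate block, 4 with TPM of protein-coding genes, 17 with no trend, 5 with limma-voom, 0 to 4 with 1 library left out, 23 with the rRNA covariate, 17 with the Y-linked term, 5 with the S phase covariate and 219 among the libraries with high rRNA. The log2 difference of Fth1 was -1.63 to -1.09 with 1 library left out and -1.74 with the Y-linked term, where it passed (adjusted p = 0.0491; 0.0491 to 0.703 over all alternatives). The causes were not tested. Deviations of same-numbered libraries correlated at 0.009, 0.061 and -0.037 across genes, and those of differently numbered libraries at -0.090 to 0.080. These values cannot show whether the replicate numbers pair the libraries. With the block the median was 0.21, the same as without Fth1-deleted 4, which has no control of its number.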
